A study of Mus musculus with 6 samples.

Results

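The 45 genes described here drive or mark the cell cycle: the cyclins, their kinases and the inhibitors of these, the replication machinery, and the kinases, motors and checkpoint proteins of mitosis. They were taken as a list of symbols and not by their values, and all 45 were found among the 24411 gene features of the count tables. The cells were primary microglia (PM) of ICR mice at postnatal day 3, shaken off mixed glial cultures that were grown from the pooled brains of 12 mice. Both groups received GSK-J4, an inhibitor of the jumonji H3K27 demethylases, at 10 μM for 4-h. In 3 libraries it was given alone (GSK-J4), and in the other 3 libraries LPS, the bacterial ligand of TLR4, was added at 10 ng/ml (LPS + GSK-J4). Every fold change therefore measures the LPS response in the presence of GSK-J4. Untreated and LPS-only PM were not analysed here, so the effect of GSK-J4 itself was not measured. The study describes the samples as independent, and the labels do not name separate cultures, so the p values measure the spread between these libraries, which may be partly technical.

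As background, the cell cycle begins with the D-type cyclins, which bind Cdk4 and Cdk6 and phosphorylate the retinoblastoma protein Rb1, and Rb1 then releases the E2F factors that switch on the genes of S phase. Licensing factors load the MCM helicase at origins, Pcna clamps the polymerases to the template, and cyclin B with Cdk1 carries the cell into mitosis. Microglia are a self-renewing population of macrophages that proliferate in culture when given serum and the growth factors made by astrocytes, and in macrophages LPS is known to arrest the cycle in G1.

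Addition of LPS to GSK-J4-treated PM raised 7 of these genes and lowered 1. Most genes of S phase and mitosis that could be tested did not pass. The 7 up-regulated genes were the G1 cyclins Ccnd1 and Ccnd2, their kinase Cdk6, the CDK inhibitor Cdkn1a (p21), the clamp Pcna, the spindle factor Tpx2 and the proliferation antigen Mki67. The gene that fell was Cdkn1b (p27), a second inhibitor of the same family as p21. The largest increase was that of Mki67, which rose 3.39-fold, from 14.1 ± 3.97 to 46.9 ± 2.98 CPM (SD, n = 3). Over the same libraries Top2a, another gene used to mark dividing cells, stood at 11.1 ± 0.876 and 9.68 ± 4.27 CPM and did not pass the test. CPM are counts scaled to a common library size with edgeR's TMM factors. Rose and fell are written of genes whose adjusted p did not exceed 0.01 in edgeR's quasi-likelihood test, which covered 10133 genes.

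Of the 45 genes, 34 had enough counts to be tested. The 7 that rose are 20.6% of them, beside 8.42% of all genes tested that rose, and the 1 that fell is 2.94%, beside 5.46% of all genes. The study's own thresholds, which also ask for a log2 fold change of at least 1.5, were passed by Mki67 and Tpx2, beside 3.76% of all genes. The log2 fold changes of the 34 genes ran from -1.23 to 1.76 with a median of 0.05, and 17 were above 0 and 17 below, while the median over all genes tested was -0.00064. The groups did not overlap in the values of 10 of the 34 genes that were higher with LPS and of 5 that were lower, beside 19.8% and 18.4% of all genes. These counts leave out 11 genes with few counts, and 12 of the 34 reached the filter level of 3.17 CPM in some libraries only. Cdkn2c reached it in all GSK-J4 and no LPS + GSK-J4 library, so its place among the tested genes came from 1 group. Tpx2, which rose, reached it in all 3 LPS + GSK-J4 libraries and in 2 GSK-J4 libraries.

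**Figure D1:**
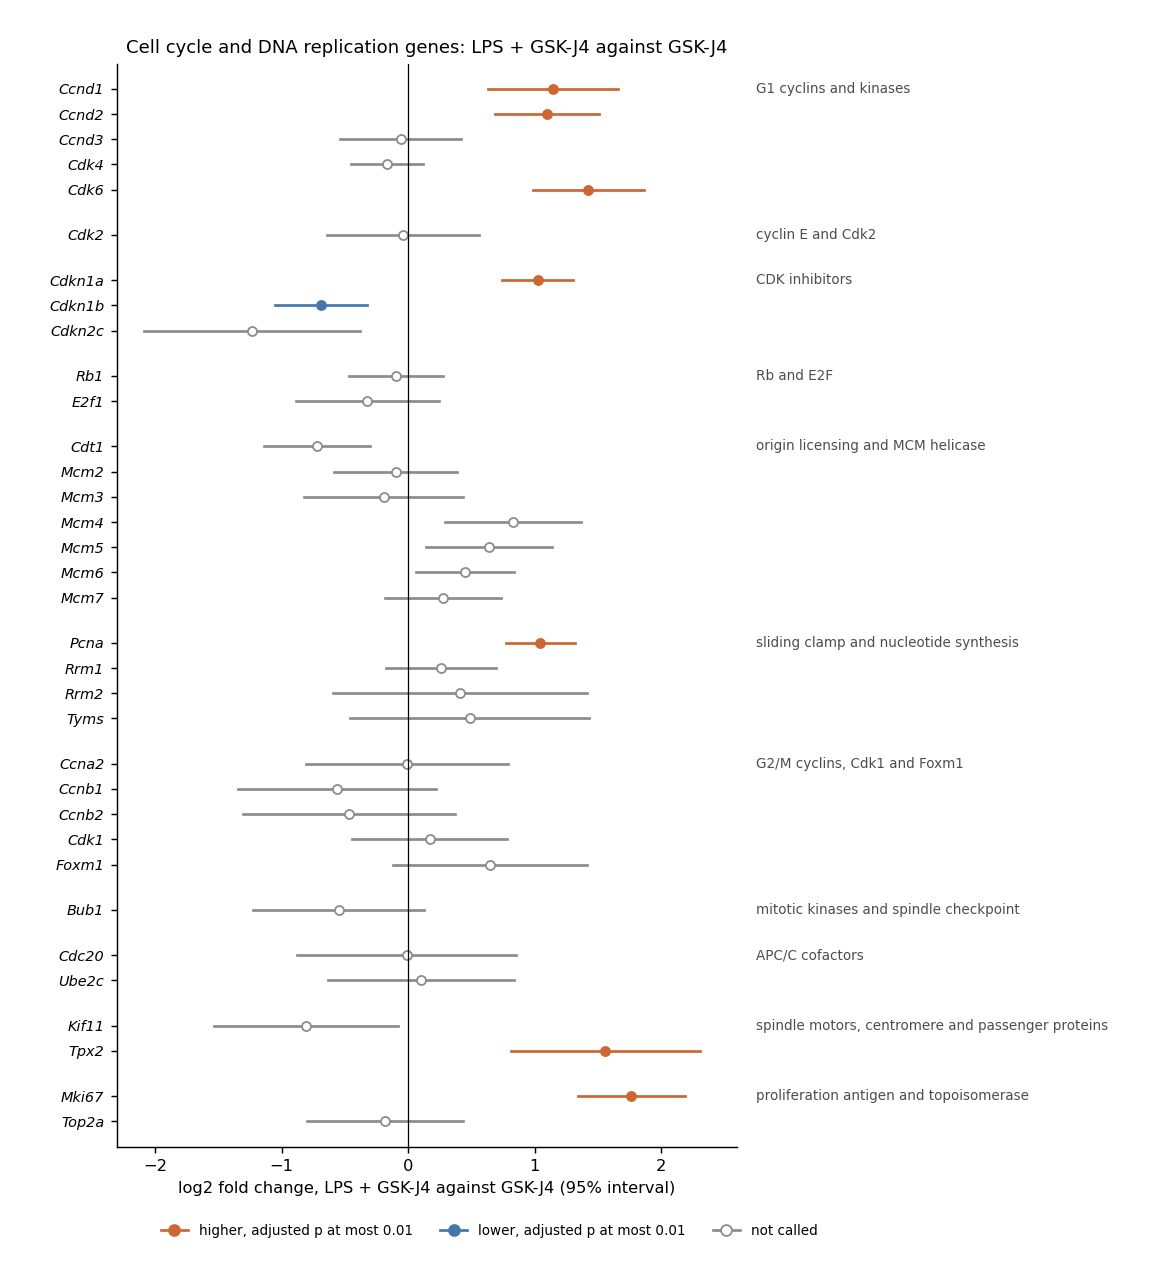
Log2 fold change (horizontal axis) of LPS + GSK-J4 against GSK-J4 for the 34 tested genes, ordered by role, with lines for the 95% interval of edgeR's fit. Filled points mark the 7 genes that rose and the 1 that fell in the test, and Mki67 lies farthest to the right at 1.76.

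Promoters are shown for the genes on which the contrast within the list turns, namely Mki67 and Top2a, which differed in their response, and the up-regulated Pcna and Cdkn1a. A promoter was found in the RefSeq table (GRCm38.p6, the mm10 assembly) for 36 of the 45 genes, and Ccnd1, Ccnd2, Ccne2, Rb1, Mcm4, Ccna2, Foxm1, Aurkb and Tpx2 have no entry there. The 250 bases before the start site are given 5′ to 3′ on the strand of the gene, from chr7:135716380-135716629 (minus strand) for Mki67, chr11:99024190-99024439 (minus) for Top2a, chr2:132253181-132253430 (minus) for Pcna and chr17:29090729-29090978 (plus) for Cdkn1a, the first of 2 starts listed for that gene. Capitals mark the cell cycle homology region (CHR, TTTGAA), which in G2/M genes is bound by the DREAM and MuvB complexes, and the CCAAT box bound by NF-Y, each on either strand.
Mki67: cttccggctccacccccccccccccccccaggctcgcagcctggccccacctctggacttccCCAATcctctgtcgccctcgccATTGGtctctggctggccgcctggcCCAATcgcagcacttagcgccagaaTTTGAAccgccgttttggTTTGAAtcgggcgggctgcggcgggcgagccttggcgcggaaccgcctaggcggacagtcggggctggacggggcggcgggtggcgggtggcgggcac
Top2a: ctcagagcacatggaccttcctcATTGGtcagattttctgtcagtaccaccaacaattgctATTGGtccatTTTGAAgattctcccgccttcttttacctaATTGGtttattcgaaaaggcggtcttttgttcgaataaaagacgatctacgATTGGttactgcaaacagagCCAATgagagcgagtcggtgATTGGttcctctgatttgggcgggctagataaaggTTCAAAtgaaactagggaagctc
Pcna: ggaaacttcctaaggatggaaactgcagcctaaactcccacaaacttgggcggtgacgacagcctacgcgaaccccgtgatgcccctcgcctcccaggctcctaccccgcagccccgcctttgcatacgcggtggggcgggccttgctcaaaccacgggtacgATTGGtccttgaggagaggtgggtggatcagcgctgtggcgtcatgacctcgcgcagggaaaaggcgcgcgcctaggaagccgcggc
Cdkn1a: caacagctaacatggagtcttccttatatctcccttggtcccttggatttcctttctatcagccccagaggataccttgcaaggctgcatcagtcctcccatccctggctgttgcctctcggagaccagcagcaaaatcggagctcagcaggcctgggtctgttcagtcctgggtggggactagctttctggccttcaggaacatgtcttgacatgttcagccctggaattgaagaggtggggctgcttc
Both Mki67 and Top2a held 2 CHR matches and several CCAAT boxes, Pcna held 1 CCAAT box, and Cdkn1a held neither.

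Over all members with an entry, CHR letters were present in 9 of 36 genes (25%), against 16.0% of 32817 promoters of the same length. A gene was counted if any of its listed promoters held the letters, and the 36 genes had 41 promoters. The comparison share is per single promoter, which favours the genes with more than 1. CCAAT was present in 26 of 36 genes (72.2%), against 33.8% of promoters. The E2F letters TTTGGCGC, TTTCCCGC, TTTGCCGC and TTTCGCGC, searched on both strands, were present in 6 of 36 genes (16.7%), against 1.86% of promoters. Of the 5 called genes with an entry, which are Mki67, Pcna, Cdk6, Cdkn1a and Cdkn1b, 0 held the E2F letters and 1, Mki67, held the CHR. The NF-κB consensus was present in 2 of 36 genes (5.56%) and in 3.90% of promoters, and in none of the 5. Each motif was counted on its own, so that letters shared by overlapping motifs count for each, and a match is a description of the letters and not a bound site.

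Libraries held between 2597505 and 3472716 counted fragments, and the 45 genes together took between 1725 and 2873 of them. The ribosomal precursor Rn45s took 22.2 to 32.4% of the counts without LPS and 45.8 to 48.1% with it. Outside the ribosomal features this left 1499693 to 2443344 fragments without LPS and 1374377 to 1444886 with it. A level of 3 counts was between 0.673 and 1.24 CPM, a floor that covers counting error only. Replicate 3 stood apart from replicates 1 and 2 in both groups, with a chi-square per degree of freedom of at least 5.81 beside 2.12 and 2.32. The count of genes that rose was 5 to 7 with single libraries left out, while the only decrease rested on most libraries being present, as given beside each gene.

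Markers of other brain cells also differed between the groups. Beside the marker calls given here, 8.42% of all genes tested rose and 5.46% fell. All 12 microglial markers were tested and had log2 fold changes below 0 (median -0.39). Of these Cx3cr1 and Csf1r fell, and before adjustment 9 of the 12 had a p under 0.05. The share of all genes under that unadjusted cut was not counted. Here and below, counts at that cut therefore have no background beside them. Their summed level was 3737 to 3915 CPM without LPS and 2944 to 3103 CPM with it. Of the astrocyte markers 3 of the 7 tested rose (Gfap, Aqp4 and Gja1), with a sum of 53.9 to 59.4 CPM against 131 to 159 CPM. Slc1a2, Slc1a3 and Aldoc were higher and Aldh1l1 was lower (log2 fold change -0.16), without passing the test. In the oligodendrocyte lineage 3 of the 5 markers tested and reported rose (Cspg4, Olig1 and Mbp), and the sum of the 7 reported markers was 151 to 178 CPM without LPS and 260 to 347 CPM with it. Cspg4 (means of 60.2 and 132 CPM) and Mbp (79.3 and 122 CPM) had the highest levels in that sum. Olig2 and Sox10 did not pass the test and their groups overlapped, and Pdgfra, not tested, was at 2.36 and 2.38 CPM. The progenitor markers Sox2 and Nes rose as well, and the sum of that list went from between 14.6 and 17.2 CPM to between 32.8 and 40.1 CPM. Hes5, the other marker of that list, was not tested, at means of 0.153 and 0.275 CPM. None of the 6 fibroblast markers was called by edgeR, 1 was higher at an unadjusted p under 0.05, and their sums, 80.1 to 282 CPM and 138 to 427 CPM, overlapped. Both tested neuronal markers, Tubb3 and Map2, rose, and the sums of the list were 14.8 to 19.1 CPM and 32.4 to 40.6 CPM. Rbfox3 and Syt1 were below the floor in the mean of both groups. Snap25, also not tested, had 1, 0 and 0 counts in GSK-J4 and 3, 1 and 4 counts in LPS + GSK-J4. The endothelial list had sums of 13.9 to 17.7 CPM and 21.5 to 57.0 CPM, in which Cdh5 rose from a mean of 12.3 to 35.2 CPM, while Pecam1 was at 1.01 and 0.79 CPM, Kdr at 2.47 and 2.61 CPM, and Cldn5 had no count in any library. What part these cells had in the levels of the cycle genes was not tested, and in bulk RNA fewer cells of a type and less RNA per cell cannot be told apart.

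Among the G1 cyclins and kinases, 3 of 5 rose and none fell, beside 8.42% and 5.46% of all genes tested. Cdk6 (mm10 chromosome 5, 3341485 to 3531008), the kinase partner of the D cyclins, was at 14.6, 10.3 and 12.1 CPM in GSK-J4 replicates 1, 2 and 3 and at 30.8, 29.4 and 39.6 CPM in LPS + GSK-J4. The lowest LPS + GSK-J4 library was thus above the highest GSK-J4 library by about the level of that library itself. The log2 fold change was 1.42 (standard error 0.21, adjusted p = 9.45e-05), and the call held in all 15 alternatives run.

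Ccnd2 (chromosome 6, 127125162 to 127152193), a D cyclin, had 12.7, 17.1 and 13.2 CPM without LPS and 34.0, 31.7 and 27.3 CPM with it, and the groups did not overlap. Its log2 fold change was 1.10 (standard error 0.19, adjusted p = 0.000585). Ccnd1 (chromosome 7, 144929931 to 144939925), the D cyclin most tied to growth factor signals, went from 8.73, 10.3 and 8.80 CPM to 23.8, 24.0 and 14.0 CPM. LPS + GSK-J4 replicate 3 was the lowest of its group here and still above all GSK-J4 libraries. The log2 fold change was 1.15 (standard error 0.24, adjusted p = 0.00256), and the call was lost without any one of GSK-J4 replicates 1 and 3 and LPS + GSK-J4 replicates 1 and 2, where the adjusted p was up to 0.0238.

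Ccnd3 and Cdk4, the other D cyclin and the other D cyclin kinase, did not pass the test. Cdk4 was at 73.4, 68.2 and 82.5 CPM in GSK-J4 and at 63.2, 69.1 and 66.9 CPM in LPS + GSK-J4, and the groups overlapped. Its interval of the log2 fold change ran from -0.45 to 0.12. Ccnd3 was at 12.5, 14.8 and 12.8 CPM and at 12.9, 10.7 and 15.3 CPM, with an interval from -0.53 to 0.42. The intervals of both lie below those of Cdk6 (0.99 to 1.86) and Ccnd2 (0.69 to 1.51), although the difference between genes was not itself tested.

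**Figure D2:**
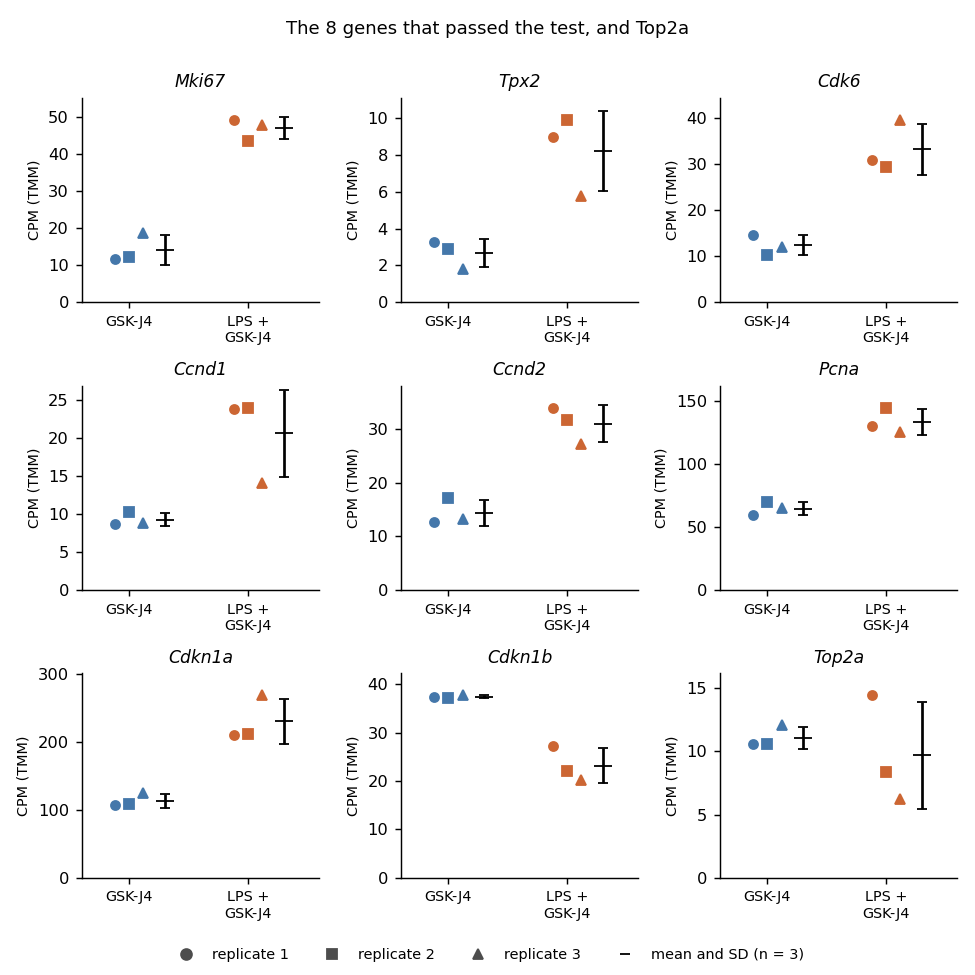
TMM-normalized CPM (vertical axis, from 0) of the 8 genes that passed the test and of Top2a in each library, with the mean and SD of 3 libraries beside the points. The groups do not overlap in any of the 8 genes, while for Top2a the LPS + GSK-J4 libraries lie on both sides of the GSK-J4 libraries.

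The CDK inhibitors parted. Cdkn1a (chromosome 17, 29090976 to 29100727), which encodes p21 and is a classic target of p53, was at 107, 108 and 125 CPM in GSK-J4 and at 211, 212 and 269 CPM in LPS + GSK-J4. Each LPS + GSK-J4 library was above all GSK-J4 libraries, and the log2 fold change was 1.03 (standard error 0.13, adjusted p = 3.15e-05). Per kilobase of exon it was the most abundant of the 45 genes in both groups, at 31.9 CPM without LPS and 64.9 CPM with it.

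Cdkn1b (chromosome 6, 134920401 to 134925513), which encodes p27 and holds resting cells out of the cycle, went the other way, from 37.5, 37.3 and 37.8 CPM to 27.3, 22.1 and 20.2 CPM. The GSK-J4 libraries differed by less than 1 CPM, and the LPS + GSK-J4 libraries were all lower. It fell by 0.69 on the log2 scale (standard error 0.17, adjusted p = 0.0082). This call was the least stable of the 8. It was lost without any single library other than LPS + GSK-J4 replicate 1 (adjusted p up to 0.0439), without replicate 3 of both groups, and in the DESeq2 Wald test (adjusted p = 0.0116), which is 7 of the 15 alternatives, and the value stayed between -0.82 and -0.59.

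Cdkn2c (p18), an inhibitor of Cdk4 and Cdk6, was at 4.48, 6.51 and 5.87 CPM and at 2.73, 3.05 and 1.24 CPM. The LPS + GSK-J4 libraries were all lower, and the difference did not pass the test (log2 fold change -1.23, standard error 0.40, adjusted p = 0.0347). The ratio of Cdkn1a to Cdkn1b counts, chosen after the values were seen, was 2.84, 2.91 and 3.32 in GSK-J4 and 7.71, 9.57 and 13.3 in LPS + GSK-J4. As these genes differed in opposite directions, that ratio had to separate the groups and adds no evidence.

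Rb1 and E2f1, the brake and the activator of the G1/S switch, did not pass the test. Rb1 was at 33.5, 39.3 and 31.2 CPM in GSK-J4 and at 35.9, 35.1 and 26.4 CPM in LPS + GSK-J4. E2f1 was at 18.2, 10.1 and 11.4 CPM and at 10.1, 11.4 and 10.3 CPM, and GSK-J4 replicate 1 alone was high. The intervals of the log2 fold change were -0.47 to 0.27 for Rb1 and -0.88 to 0.24 for E2f1. Cdk2, the kinase partner of cyclin E, was at 11.6, 15.5 and 9.17 CPM and at 7.42, 13.4 and 15.3 CPM, with an interval from -0.64 to 0.56. Cyclin E itself was near the floor, with Ccne2 at 0.944, 1.35 and 0.733 CPM and at 1.95, 1.53 and 1.65 CPM.

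Of the 8 licensing and helicase genes 7 were tested and none passed in edgeR or in the DESeq2 Wald test, while 4 had an unadjusted p under 0.05, of which 3 were higher (Mcm4, Mcm5 and Mcm6) and 1 lower (Cdt1). Mcm6, a helicase subunit, was at 20.5, 19.1 and 22.0 CPM in GSK-J4 and at 23.8, 29.0 and 31.0 CPM in LPS + GSK-J4 (log2 fold change 0.45, adjusted p = 0.0888). Cdt1 (chromosome 8, 122568015 to 122573554), which loads the helicase at origins and is destroyed once S phase starts, overlaps the gene model Gm20388 on the same strand. It was at 23.6, 24.7 and 26.8 CPM and at 18.3, 14.1 and 12.8 CPM. All LPS + GSK-J4 libraries were above the others for Mcm6 and below them for Cdt1. The difference of Cdt1 (log2 fold change -0.72, standard error 0.20, adjusted p = 0.0149) passed without the filter on low counts (adjusted p = 0.00507). It also passed without LPS + GSK-J4 replicate 1 (log2 fold change -0.89, adjusted p = 0.00936).

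The 6 subunits of the MCM helicase act as a single ring, and their values did not lie on one side of 0. The log2 fold changes were 0.83 for Mcm4, 0.64 for Mcm5, 0.45 for Mcm6 and 0.28 for Mcm7, and -0.10 for Mcm2 and -0.19 for Mcm3. The intervals of Mcm2, -0.58 to 0.39, and Mcm3, -0.82 to 0.44, include 0 and overlap those of the other subunits. The groups did not overlap for Mcm4, Mcm5 and Mcm6, and those of the other subunits did. The adjusted p of Mcm4, the smallest of the ring, was 0.0261.

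Pcna (chromosome 2, 132249162 to 132253314) rose, the only one of the 4 clamp and nucleotide synthesis genes that passed the test. It was at 59.5, 69.6 and 65.3 CPM in GSK-J4 and at 130, 145 and 126 CPM in LPS + GSK-J4, so that each library with LPS lay far above all those without. The log2 fold change was 1.04 (standard error 0.13, adjusted p = 1.86e-05). Pcna was the second most abundant of the 45 genes per kilobase of exon, at 27.0 CPM without LPS and 55.7 CPM with it. Fragments that match a second copy in the genome are not in the counts, which can lower the level of genes with processed pseudogenes.

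The enzymes that make deoxynucleotides did not pass the test. Rrm1, the large subunit of ribonucleotide reductase, was at 20.3, 17.7 and 13.2 CPM and at 21.5, 21.4 and 19.4 CPM, with an interval of the log2 fold change from -0.17 to 0.69. Tyms, thymidylate synthase, was at 2.6, 2.92 and 2.2 CPM and at 5.85, 1.91 and 3.30 CPM, and its groups overlapped. The interval of Rrm2, the small subunit of the reductase, was -0.59 to 1.42 and that of Tyms -0.46 to 1.43, and both include the value of Pcna.

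None of the 5 genes of the G2/M switch passed in edgeR or in the DESeq2 Wald test, and 0 had an unadjusted p under 0.05. Cdk1, the mitotic kinase, was at 8.26, 7.18 and 5.13 CPM in GSK-J4 and at 9.37, 6.87 and 7.43 CPM in LPS + GSK-J4. Ccna2, its S and G2 cyclin, was at 4.72, 5.16 and 6.60 CPM and at 7.42, 6.11 and 2.48 CPM. In both genes the groups overlapped, and for Ccna2 LPS + GSK-J4 replicate 3 was the lowest library. The log2 fold changes of Ccnb1, Ccnb2 and Foxm1, the mitotic B cyclins and the factor that drives their transcription, were -0.56, -0.47 and 0.65. Their adjusted p values were between 0.221 and 0.442.

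Kinases and checkpoint proteins of mitosis were low. Bub1, a checkpoint kinase of the kinetochore, was at 6.37, 8.31 and 5.87 CPM in GSK-J4 and at 5.85, 4.58 and 3.72 CPM in LPS + GSK-J4. These groups just failed to overlap, with the lowest GSK-J4 library at 5.87 CPM, and the difference did not pass the test (log2 fold change -0.55, adjusted p = 0.241). Bub1b, which encodes the checkpoint protein BubR1, was at 2.12, 3.82 and 2.57 CPM and at 4.29, 3.05 and 3.72 CPM and could not be tested. The activator of the anaphase-promoting complex Cdc20 was at 2.83, 3.82 and 3.30 CPM and at 2.73, 2.29 and 4.96 CPM. Ube2c, the ubiquitin-conjugating enzyme of that complex, was at 4.25, 3.59 and 4.40 CPM and at 3.51, 4.96 and 4.54 CPM. The intervals of both genes were wide, -0.88 to 0.86 for Cdc20 and -0.63 to 0.83 for Ube2c.

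Tpx2 (chromosome 2, 152847964 to 152895321), which nucleates spindle microtubules and activates Aurka, rose. Of the 5 spindle and centromere genes only 2, Tpx2 and Kif11, had enough counts to be tested. Tpx2 was at 3.30, 2.92 and 1.83 CPM in GSK-J4 and at 8.98, 9.92 and 5.78 CPM in LPS + GSK-J4. These values rest on 14, 13 and 5 counts and on 23, 26 and 14 counts, and the groups did not overlap. The log2 fold change was 1.56 (standard error 0.35, adjusted p = 0.00388). The call was lost without any one of GSK-J4 replicates 2 and 3 and LPS + GSK-J4 replicates 1 and 2 (adjusted p up to 0.0318), and in the DESeq2 Wald test (log2 fold change 1.54, adjusted p = 0.0215).

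Kif11, the motor that pushes the spindle poles apart, was at 6.61, 9.43 and 7.33 CPM and at 6.24, 4.58 and 2.48 CPM. All LPS + GSK-J4 libraries were below the GSK-J4 libraries, and the difference did not pass the test (log2 fold change -0.81, adjusted p = 0.105). Cenpe, the kinetochore motor, was at 1.89, 5.61 and 3.30 CPM and at 3.51, 0.763 and 1.65 CPM and could not be tested. Tpx2 and Kif11 thus stood on opposite sides, and the ratio of their counts, chosen after the values were seen, was 0.50, 0.31 and 0.25 in GSK-J4 and 1.44, 2.17 and 2.33 in LPS + GSK-J4. With the groups apart in opposite directions for these genes, the ratio had to separate them and adds no evidence.

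Mki67 (chromosome 7, 135689784 to 135716361), whose protein Ki-67 coats mitotic chromosomes and is the standard antigen of cycling cells, was at 11.6, 12.1 and 18.7 CPM in GSK-J4. In LPS + GSK-J4 it was at 49.2, 43.5 and 47.9 CPM, so that the lowest of these libraries was well above the highest of the others. The log2 fold change was 1.76 (standard error 0.20, adjusted p = 8.01e-06), and the call held in all 15 alternatives, with values from 1.63 to 1.98. In the order of levels per kilobase of exon Mki67 went from place 24 of the 45 genes in GSK-J4 to place 8 in LPS + GSK-J4.

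Top2a (chromosome 11, 98992943 to 99024189), the topoisomerase that untangles replicated chromosomes, was at 10.6, 10.5 and 12.1 CPM in GSK-J4 and at 14.4, 8.39 and 6.19 CPM in LPS + GSK-J4. Its interval of the log2 fold change, -0.80 to 0.43, lay below that of Mki67, 1.34 to 2.19. The ratio of Mki67 to Top2a counts, chosen after the values were seen, was 1.09, 1.15 and 1.55 in GSK-J4 and 3.41, 5.18 and 7.73 in LPS + GSK-J4. It is a ratio within each library and does not change with the scaling. Since it was picked for the contrast between these genes, it is no separate evidence of that contrast. The spread of Top2a in LPS + GSK-J4 was set by replicate 1 (high) and replicate 3 (low).

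**Figure D3:**
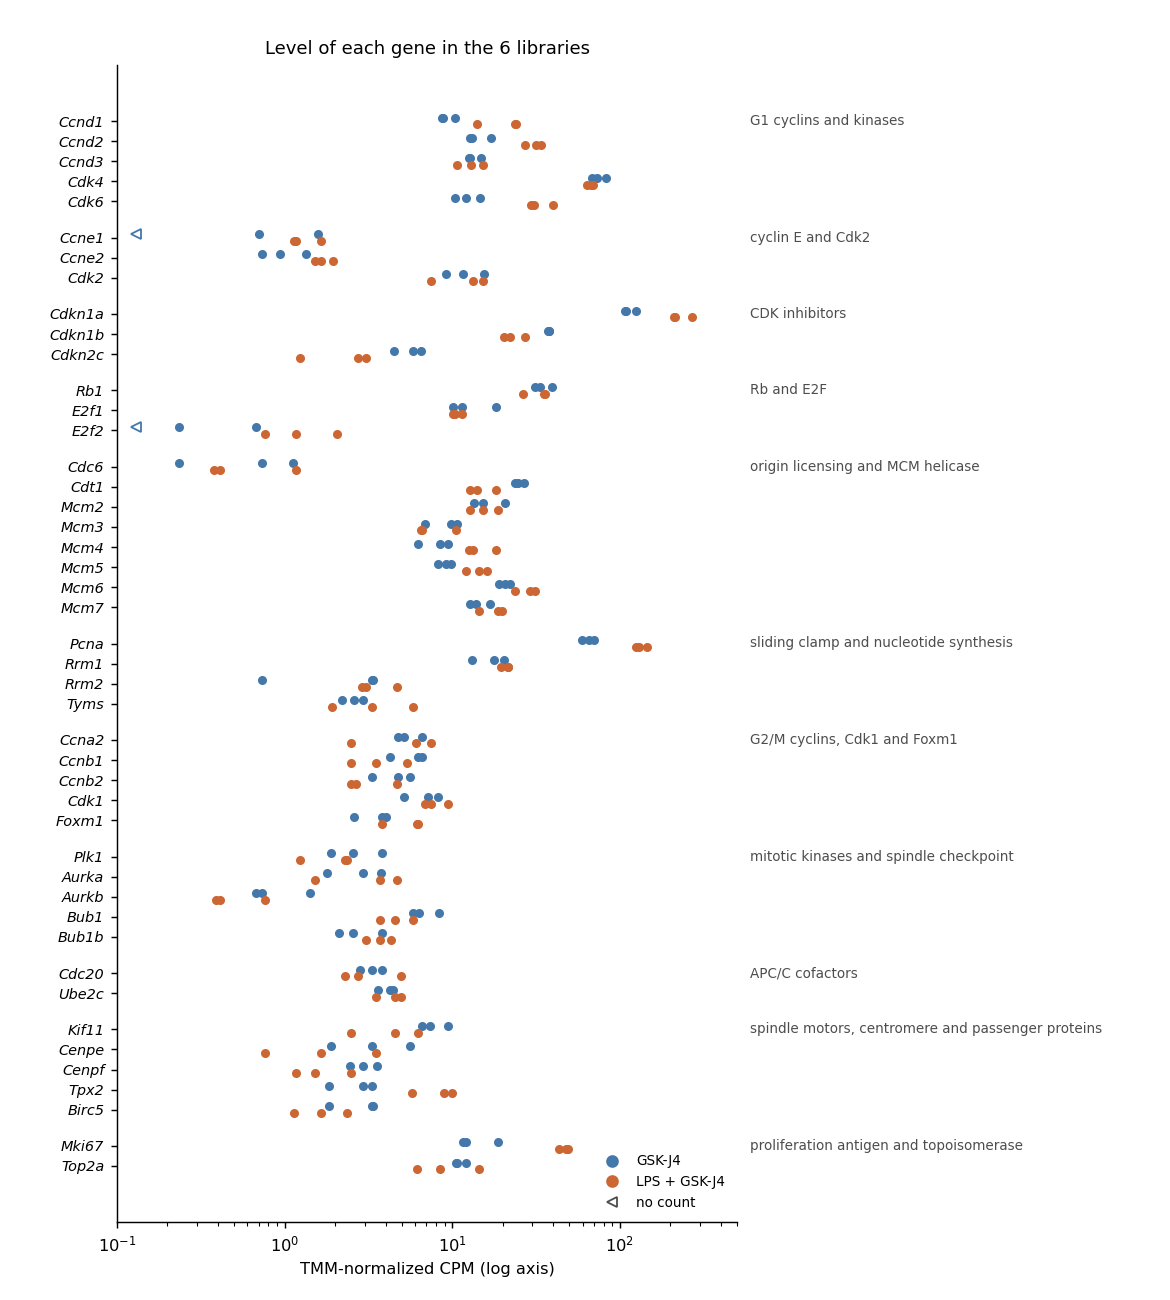
TMM-normalized CPM (horizontal log axis) of all 45 genes in the 6 libraries, in the order of their roles. Most genes of mitosis lie below 10 CPM in both groups, and Cdkn1a, Pcna and Cdk4 lie highest.

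The 11 genes that could not be tested were Ccne1, Ccne2, E2f2, Cdc6, Plk1, Aurka, Aurkb, Bub1b, Cenpe, Cenpf and Birc5, which include cyclin E, the Aurora and Polo kinases and the passenger protein survivin. Their means were 0.303 to 3.60 CPM without LPS and 0.522 to 3.69 CPM with it. Fitted without the filter, their log2 fold changes ran from -0.93 to 1.77, none was called by edgeR and 0 had an unadjusted p of at most 0.05. E2f2, an activator of S phase genes, had 1, 3 and 0 counts in GSK-J4 and 3, 2 and 5 counts in LPS + GSK-J4, and Ccne1 had no count in GSK-J4 replicate 3.

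Further genes of the pathway were read from 6 lists. Their calls stand beside 8.42% of all genes tested that rose and 5.46% that fell. Their counts at an unadjusted p under 0.05 are given without the share over all genes, which was not counted. Of 45 other replication genes, 29 were tested, 1 rose and none fell in edgeR (6 higher and 1 lower at an unadjusted p under 0.05), with a median log2 fold change of 0.06. The gene that rose was Chaf1b, a subunit of the complex that lays histones on new DNA, which went from 6.99 ± 1.36 to 18.5 ± 1.98 CPM (log2 fold change 1.40, adjusted p = 0.000443). Of 47 other mitosis genes, 23 were tested, none rose and 1 fell in edgeR (2 higher and 5 lower at an unadjusted p under 0.05), and the median was -0.31. That gene was Ccnf, cyclin F, an F-box protein that marks ribonucleotide reductase and other proteins for destruction, which went from 50.9 ± 1.75 to 17.6 ± 2.93 CPM (log2 fold change -1.53, adjusted p = 8.47e-06).

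Of 26 other Rb, E2F and CDK inhibitor genes, 19 were tested, none rose and 1 fell in edgeR (2 higher and 3 lower at an unadjusted p under 0.05). The gene that fell was Fbxw7, the ubiquitin ligase subunit that removes cyclin E and Myc, at 29.8 ± 3.5 and 14.5 ± 3.62 CPM (log2 fold change -1.03, adjusted p = 0.00209). The 13 cyclins and kinases of transcription were all tested and 0 were called by edgeR (1 lower at an unadjusted p under 0.05), and their median log2 fold change was 0.00047. The sums of this last list were 535 to 577 CPM without LPS and 517 to 541 CPM with it. For both lists the share over all genes tested was 8.42% that rose and 5.46% that fell.

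Cdkn1a is a p53 target, and others of that kind were read beside it. Of the 22 p53 targets 21 were tested, 3 rose and 1 fell (8 higher and 3 lower at an unadjusted p under 0.05), with a median log2 fold change of 0.22. Over all genes tested 8.42% rose and 5.46% fell. The target that was not tested, Fas, a death receptor named after its values were seen, had 1, 5 and 1 counts in GSK-J4 and 11, 7 and 9 counts in LPS + GSK-J4, and it was called in the fit without the filter (log2 fold change 2.42, adjusted p = 0.00236). Btg2, an anti-proliferative gene, rose from 31.9 ± 3.82 to 104 ± 9.34 CPM (log2 fold change 1.69, adjusted p = 3.63e-07), and Plk2, a Polo-like kinase of the stress response, rose from 181 ± 8.72 to 447 ± 7.84 CPM (1.30, adjusted p = 2.36e-07). Eda2r, a receptor of the TNF receptor family, rose (1.17, adjusted p = 0.00538) and Trp53inp1 fell (log2 fold change -0.71, adjusted p = 0.00777). The other 17 did not pass the test.

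In the list of the Myc network and growth arrest, 18 of 23 genes were tested. Of these 4 rose and 2 fell, beside 8.42% and 5.46% of all genes tested, and Csf1r is also a microglial marker. At an unadjusted p under 0.05, 5 were higher and 5 lower, with no share over all genes counted at that cut. Csf1, the growth factor of microglia, rose from 74.5 ± 9.45 to 285 ± 61.7 CPM (log2 fold change 1.93, adjusted p = 2.01e-07), while its receptor Csf1r fell (log2 fold change -0.46, adjusted p = 0.0045). Gadd45b, a stress sensor that can inhibit Cdk1, rose from 29.4 ± 6.18 to 111 ± 10.8 CPM (1.91, adjusted p = 3.04e-07). Myc, the growth-promoting factor, rose from 25.3 ± 3.30 to 71.8 ± 17.6 CPM (1.52, adjusted p = 1.75e-05). Mnt, which represses Myc targets, fell from 28.4 ± 8.15 to 14.9 ± 1.76 CPM (log2 fold change -0.91, adjusted p = 0.0082). The median of this list was -0.15.

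**Figure D4:**
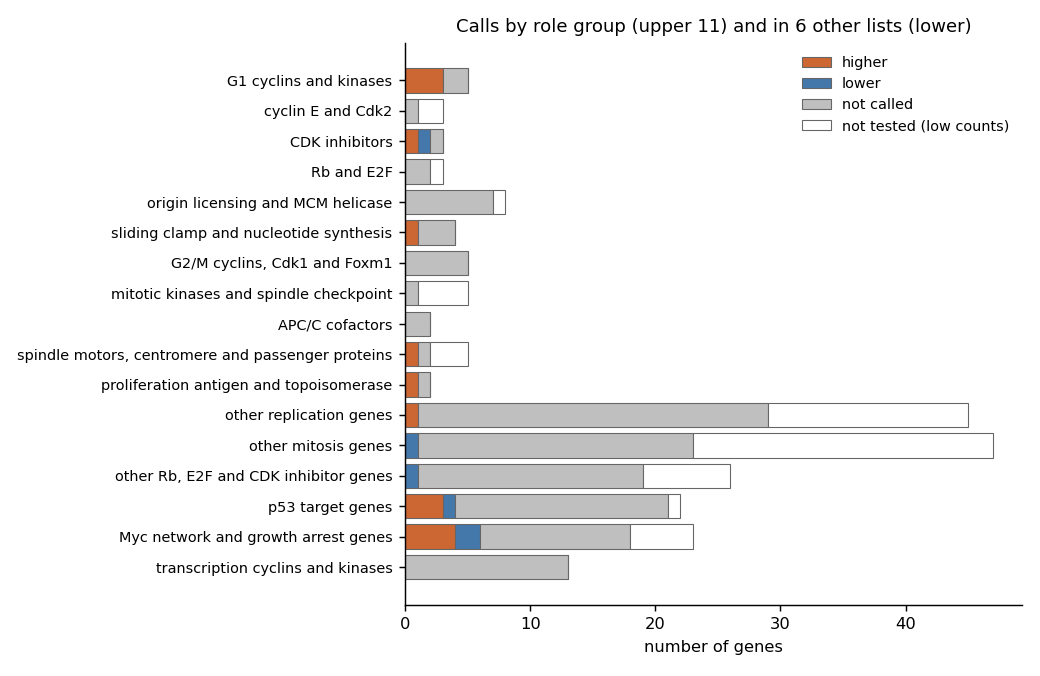
Number of genes (horizontal axis, from 0) that rose, fell, were not called or had too few counts to be tested, for the 11 role groups of the 45 genes and for 6 other lists. Of the 8 calls among the 45 genes, 3 lie in the G1 cyclins and kinases, 2 in the CDK inhibitors and 1 each in the groups of Pcna, Tpx2 and Mki67, while the 6 other lists hold between 0 and 6 calls each.

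**Figure D5:**
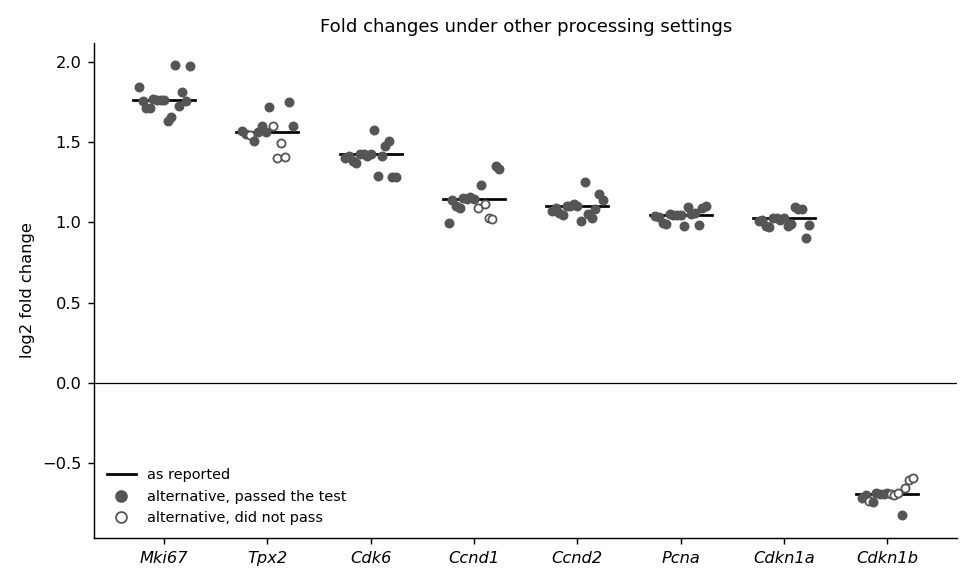
Log2 fold change (vertical axis) of the 8 called genes as reported (line) and under each alternative processing (points, open where the gene did not pass the test). Points of Mki67, Cdk6, Ccnd2, Pcna and Cdkn1a are all filled, those of Tpx2, Ccnd1 and Cdkn1b are partly open, and none crosses 0.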

How the data were processed

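RNA-seq was performed on PM treated with GSK-J4 (3 libraries) or LPS + GSK-J4 (3 libraries), with groups and replicate numbers taken from the sample titles. The authors processed base calls with CASAVA 1.8.2, trimmed reads with Trimmomatic 0.33, aligned them to mm10 with STAR 2.5.1 and deposited raw counts of fragments per gene, without normalization. The annotation used for counting is not given in the sources used here. The reverse-strand column was used, since the kit is directional. The opposite-strand column held 0.966 to 1.38% of the fragments counted on either strand.

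In R 4.3.3 with edgeR 4.0.16, counts were scaled by TMM, filtered with filterByExpr (minimum count 10, minimum total 15) and fitted with the robust quasi-likelihood test over all genes, without covariates. The p values were adjusted by Benjamini-Hochberg, and errors are SD over 3 libraries. With 3 libraries against 3 an exact permutation test cannot go below p = 0.1. Intervals are at 95%. Alternatives were unstranded counts, DESeq2 (1.42.0) size factors and Wald test, other filters, an adjusted p of 0.05, a replicate block, removal of ribosomal features (Rn45s, Mir6236 and Lars2) and leaving out libraries. The fit was tested on simulated data. The changed genes were drawn at random from all genes tested, and calls were not counted apart for genes at low levels. Of 50 genes changed by 0.5 on the log2 scale edgeR called 1, and of 50 changed by 1 it called 29. At changes of 1.5 and 2 it called 37 and 47 of 50, and 3 of 9933 unchanged genes were called. A gene that did not pass may therefore still have changed by such amounts. The genes and lists were chosen with earlier results of these data known. Library values are given for every called member and the 2 other members of each role group with the highest mean CPM, and from other lists for up to 4 called genes with the largest fold change. Positions and exon lengths are from GENCODE M21 (mm10). A single marker gene is not reported here.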

Additional observations from a re-analysis of the deposited data

Results flagged for a closer look

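Fragments on the strand opposite to Mki67 were seen in a column that the comparison does not use. They numbered 8, 14 and 7 in LPS + GSK-J4 replicates 1, 2 and 3 and 1, 0 and 1 in GSK-J4 replicates 1, 2 and 3, and Mki67 was the only 1 of the 45 genes with more than 3 such fragments in each LPS + GSK-J4 library and more than in every GSK-J4 library. The gene model Gm45240 overlaps Mki67 on that opposite strand. These few fragments are outside the 126, 114 and 116 counts of Mki67 itself in LPS + GSK-J4, and their source was not tested.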

How the results depend on the processing

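Of the 8 called genes, Mki67, Cdk6, Ccnd2, Pcna and Cdkn1a passed in every alternative, and none of the 8 changed sign. The number of genes that rose stayed between 5 and 8 in all 15 alternatives, and the number that fell varied. It was 0 in the DESeq2 Wald test, 2 without the filter on low counts, 3 at an adjusted p of at most 0.05, 2 with the replicate block (Cdkn1b and Cdt1), 0 without replicate 3 of both groups (chosen after seeing the data) and 0 to 2 with single libraries left out. The study's thresholds were passed by 1 gene in DESeq2, 1 with at least 10 counts in every library, which removes Tpx2, and 1 to 3 with single libraries left out. Over all genes, 858 fell without the filter, 1386 rose and 1004 fell at an adjusted p of at most 0.05, 1016 fell with the replicate block, 312 to 679 fell with single libraries left out, and 232 passed the study's thresholds with at least 10 counts in every library. Libraries with the same replicate number had deviations from the group means that correlated at -0.0102, 0.117 and 0.295, and not every library correlated best with its own number, so the numbers were not taken to pair the libraries. The block changed no call among the 45 genes other than that of Cdt1 (adjusted p = 0.00347).

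Signs changed in 10 of the 26 genes that were not called. Ccnd3 was at 0.056 on the log2 scale with unstranded counts, and Mcm3, Ccna2 and Top2a were at 0.028, 0.46 and 0.11 without replicate 3 of both groups. With single libraries left out the ranges were -0.19 to 0.067 for Ccnd3, -0.25 to 0.21 for Cdk2, -0.18 to 0.024 for Rb1, -0.25 to 0.10 for Mcm2, -0.019 to 0.81 for Tyms, -0.31 to 0.33 for Ccna2, -0.40 to 0.20 for Cdc20, -0.0094 to 0.23 for Ube2c and -0.59 to 0.051 for Top2a. The cause of these changes was not tested.

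Depth limits the low genes, and 11 of the 45 genes had at most 3 counts in some library. No alternative moved the median over all genes by more than 0.0546 on the log2 scale.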
